A study of Mus musculus with 16 samples.

Results

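The genes described here encode the proteins of the cytosolic ribosome, and their RNA was compared between Tim-4+ and Tim-4- tumor-associated macrophages (TAMs). Members were the protein-coding mouse genes with a symbol made of Rpl or Rps and a number, together with Rplp0, Rplp1, Rplp2 and Rpsa. The kinase genes Rps6k, the gene Rps19bp1 and symbols that mark a pseudogene were left out. The rule gave 85 members of 55604 genes listed, of which 52 belong to the large subunit and 33 to the small subunit. Another 7 symbols fitted the pattern without being annotated as protein-coding and were not counted.

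A ribosome joins a small subunit, which holds the mRNA and reads its codons, to a large subunit, which forms the peptide bond and lets the new chain out through a tunnel. Each protein is needed in about equal numbers, and the genes are among the most heavily transcribed of any cell. Their mRNAs carry a terminal oligopyrimidine (TOP) start, a run of pyrimidines at the 5′ end through which the mTORC1 kinase controls their translation, so that the RNA level is only one step of control.

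The cells came from the peritoneal cavity of C57BL/6 mice bearing ID8 tumors, a mouse ovarian cancer line that grows in the peritoneum. Tim-4, encoded by Timd4, is a surface receptor for phosphatidylserine carried by resident peritoneal macrophages, and the study compared the TAMs with it (Tim-4+) with those without it (Tim-4-). The methods describe removal of most tumor cells on a density gradient and selection with magnetic beads, first for Tim-4 and then, in the remaining cells, for F4/80. Both groups were TAMs from tumor-bearing mice of the same strain, and neither normal macrophages nor an added treatment entered these libraries. The mice were female by the study's methods, which also give their age and the time after inoculation. The labels do not say whether a pair number stands for 1 mouse or for a pool. There were 4 pairs of libraries, numbered 793, 784, 783 and 779 in the labels, and values below are given in that order with n = 4 in each group.

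Total counts on genes ranged from 53527928 to 57768202 in Tim-4+ and from 55618306 to 69594245 in Tim-4- libraries. Timd4 was at 1175, 1765, 530.3 and 1181 CPM (counts scaled to library size) in Tim-4+ TAMs and at 86.0, 11.3, 22.5 and 1.98 CPM in Tim-4- TAMs, so that each library matched its label. The scaling was by the trimmed mean of M values (TMM), which sets the typical gene equal between libraries. Of 8 macrophage markers tested, 5 were higher and 1 was lower in Tim-4+ TAMs. Of 12 tumor and mesothelial markers (Epcam, Krt7, Krt8, Krt18, Krt19, Wt1, Msln, Upk3b, Lrrn4, Muc16, Col1a1 and Col1a2) 10 were lower in Tim-4+ TAMs, with a summed level of 113 to 420.5 CPM against 447 to 2003 CPM in Tim-4- TAMs. Of 20 proliferation genes 10 were lower, at a sum of 718 to 1091 CPM against 1141 to 1485 CPM. No tumor, mesothelial or proliferation marker was at 0 in all libraries, and the part of these cells in the results below was not tested. In bulk RNA, fewer cells of a type and less RNA per cell cannot be told apart.

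Several ribosomal protein genes were higher in Tim-4+ TAMs. With libraries scaled by TMM, 17 of 83 tested members were higher and 1 was lower in edgeR's quasi-likelihood test with the pair as a block (Benjamini-Hochberg adjusted p under 0.05 over 16394 genes), where 8.94% of all tested genes were called higher and 8.46% lower. The members' share called higher was 20.5%. The median log2 fold change of the tested members was 0.23, with quartiles at 0.04 and 0.37, and that of all tested genes was -0.0005. A log2 fold change above 0 was fitted for 65 members and one below 0 for 18, while 65 members passed in neither direction. Most differences were small. Only Rps26 and Rpl29 were called with at least a 2-fold rise and no member with a 2-fold fall, beside 3.77% of all genes called 2-fold higher and 5.81% called 2-fold lower.

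This picture depended on what the libraries were scaled to. The TMM factors were 0.832 to 0.948 in Tim-4+ and 1.05 to 1.18 in Tim-4- libraries, so that scaling to total counts moved the median of all genes to -0.36 and that of the members to -0.13 on the log2 scale. On total counts 4 members were called higher (Rpl29, Rplp1, Rps26 and Rpsa) and 19 lower, where 4.67% of all genes were called higher and 29.4% lower. Scaled to the summed counts of the ribosomal protein genes themselves, the same 4 members were higher and 14 were lower, with a member median of -0.10, where 4.52% of all genes were higher and 23.8% were lower. Of all genes called, 51.4% were higher with TMM, 13.7% with total counts and 16.0% with ribosomal protein counts. The distance between the median of the members and that of all tested genes was 0.23 on the log2 scale in each of the 3 scalings. It could hardly have differed, because a change of scaling moves the log2 fold changes of all genes by about the same amount.

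**Figure D1:**
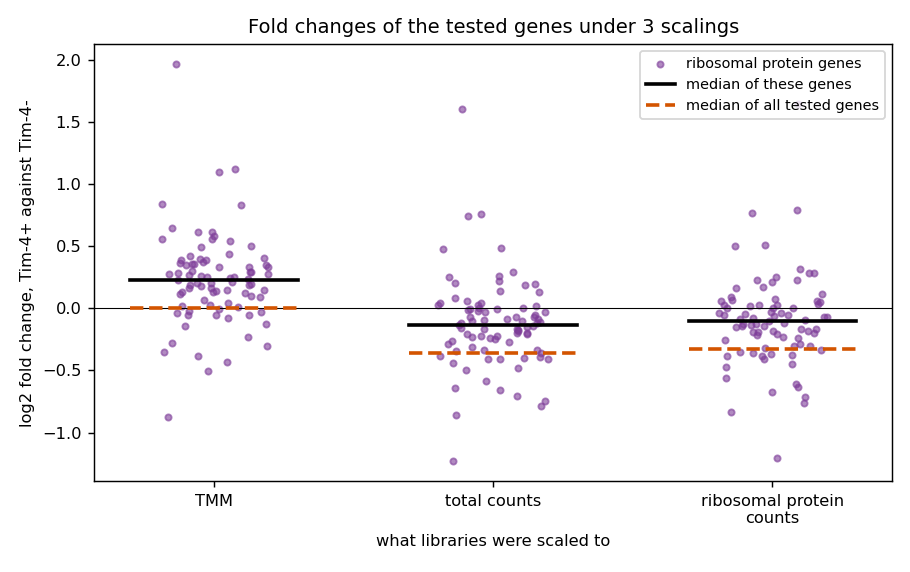
Log2 fold change (Tim-4+ against Tim-4-, vertical axis) of each of the 83 tested ribosomal protein genes, shown as points, under 3 scalings of the libraries (horizontal axis). Solid bars are the median of these genes, at 0.23, -0.13 and -0.10, and dashed bars the median of all 16394 tested genes, at -0.0005, -0.36 and -0.33. All points lie lower under the scalings to total counts and to ribosomal protein counts than with TMM.

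As a share of all counts on genes, the members took 1.78, 1.52, 1.48 and 1.94% in the Tim-4+ subset (1.68% ± 0.22, SD) against 1.70, 1.46, 1.64 and 2.09% in the Tim-4- subset (1.72% ± 0.27, SD). The share was higher in Tim-4+ TAMs in 2 of 4 pairs, and the groups overlapped. Within the family, counts on large subunit genes exceeded those on small subunit genes in both subsets. The ratio was 1.33 ± 0.017 (SD) in the Tim-4+ against 1.28 ± 0.022 (SD) in the Tim-4- subset, and higher in Tim-4+ TAMs in 4 of 4 pairs. In pair 779 the ratios were close, at 1.306 in Tim-4+ and 1.298 in Tim-4- TAMs. With TMM, 20% of tested large subunit and 21.2% of tested small subunit members were called higher.

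The pairs did not weigh equally. On TMM-scaled CPM the median log2 ratio over the tested members was 0.24 in pair 793, 0.41 in pair 784, 0.01 in pair 783 and 0.26 in pair 779. In all 4 pairs 40 members were higher and 8 were lower, where 22.9% and 19.95% of all tested genes did so. The CPM of the groups did not overlap for 13 members higher in Tim-4+ TAMs and for 2 lower, beside 6.86% and 5.94% of all genes. Pair 779 held the highest Tim-4+ library for 72 of the 83 members and the highest Tim-4- library for 69, so that pair 779 was high in both subsets. Without the pair block, 2 members (Rpl29 and Rps26) were called higher and none lower, where 0.854% of all genes were higher and 0.512% were lower. In that fit 3 members were lower at an unadjusted p under 0.05, and DESeq2 with the block called 26 members higher and 3 lower, in a fit that called 27.0% of all genes in either direction against 17.4% in the edgeR fit with the block. The number higher fell to 4 without pair 793, to 2 without pair 784 and to 3 without pair 779, and was 16 without pair 783, and the share of all genes called in either direction fell as well, to 7.56, 0.888 and 4.69% against 17.4% with all pairs (21.6% without pair 783). Rpl29 and Rps26 were called higher in each of 18 alternatives.

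**Figure D2:**
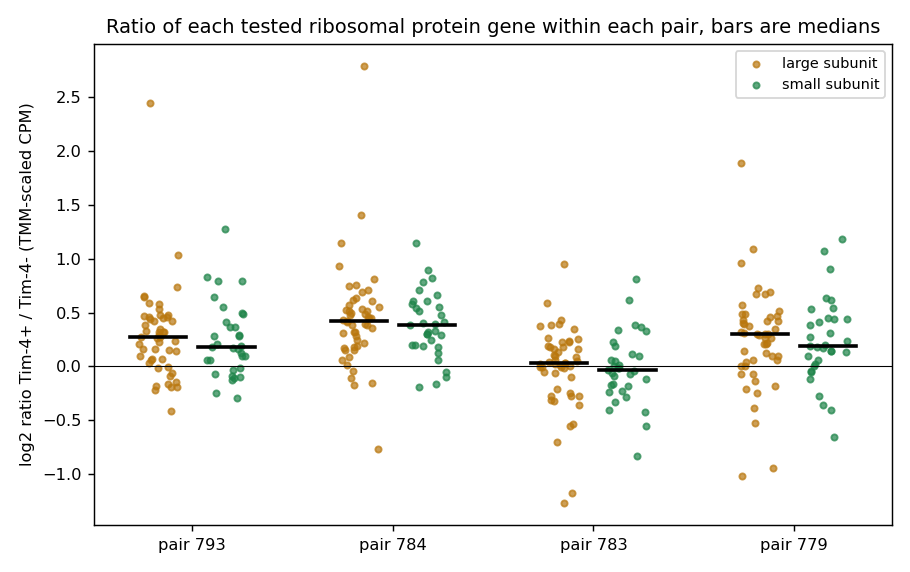
Log2 ratio of TMM-scaled CPM, Tim-4+ over Tim-4- (vertical axis), within each of the 4 pairs (horizontal axis). Each point is 1 tested member, with 50 of the large subunit and 33 of the small subunit set side by side, and bars are medians. Pair 783 sits near 0, with medians of 0.03 (large) and -0.03 (small), and pair 784 is highest, at 0.42 and 0.38.

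The small subunit had 7 members called higher of 33 tested and none called lower, with a median log2 fold change of 0.17. Rps26, a protein at the channel where the mRNA leaves the subunit (10:128624534-128626747, GRCm38), had the smallest p of the family. Rps26 was at 375, 289, 276 and 412 CPM in Tim-4+ TAMs and at 154, 131, 157 and 182 CPM in Tim-4- TAMs. The lowest Tim-4+ library lay above the highest Tim-4- library. Its log2 fold change was 1.10 (SE 0.12, adjusted p = 0.00538 by edgeR), 0.74 on total counts (adjusted p = 0.0092), and Rps26 took 1.63 to 1.85% of the family's counts in Tim-4+ TAMs against 0.942 to 1.07% in Tim-4- TAMs.

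Rpsa, which is both a small subunit protein and a precursor of a laminin receptor, was at 757, 675, 567 and 921 CPM in Tim-4+ TAMs and at 437, 363, 370.0 and 438 CPM in Tim-4- TAMs. The groups did not overlap and the log2 fold change was 0.84 (SE 0.13, edgeR adjusted p = 0.00994). Rps18, a protein of the head of the small subunit, was at 220.1, 209, 179.9 and 278 CPM against 141, 132, 138 and 149 CPM. Its 4 Tim-4- libraries were close together, and each Tim-4+ library was higher by more than their spread (log2 fold change 0.65, SE 0.12, edgeR adjusted p = 0.014, and 0.29 with adjusted p = 0.0513 on total counts).

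Rps24 (log2 fold change 0.56), Rps15 (0.55), Rps16 (0.50) and Rps2 (0.39) were the others called higher. Rps15 was at 635, 551, 464 and 728 CPM in Tim-4+ TAMs and at 452, 312, 368 and 503 CPM in Tim-4- TAMs, where the lowest Tim-4+ value lay below the highest Tim-4- value, so that the call rested on the difference within pairs. Rps3, a protein of the mRNA entry channel with a known part in DNA repair, was higher in 4 of 4 pairs and did not pass (0.40, SE 0.13, edgeR adjusted p = 0.0709). Rps6, the classical substrate of S6 kinase below mTORC1, was at 84.8, 89.2, 65.8 and 105 CPM in Tim-4+ TAMs and at 92.7, 78.7, 87.2 and 95.1 CPM in Tim-4- TAMs. Those ranges overlapped wholly, with Rps6 higher in 2 of 4 pairs (log2 fold change -0.05, SE 0.13), although on total counts it passed as lower (-0.41, edgeR adjusted p = 0.0239). Rps27a, made as a fusion with ubiquitin, was at 143, 135, 114 and 152 CPM against 126, 109, 121 and 138 CPM, and its log2 fold change of 0.14 (SE 0.11) turned to -0.22 on total counts, where neither passed.

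Rps13 lay at the other end of the small subunit. It was at 28.2, 27.1, 20.2 and 25.8 CPM in Tim-4+ TAMs and at 34.5, 31.0, 36.0 and 34.2 CPM in Tim-4- TAMs. The groups did not overlap, and Rps13 was lower in 4 of 4 pairs (log2 fold change -0.43, SE 0.13) without passing over all genes (edgeR adjusted p = 0.0627, and 0.0111 on total counts). Reads on its pseudogenes pointed the other way, as given below.

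**Figure D3:**
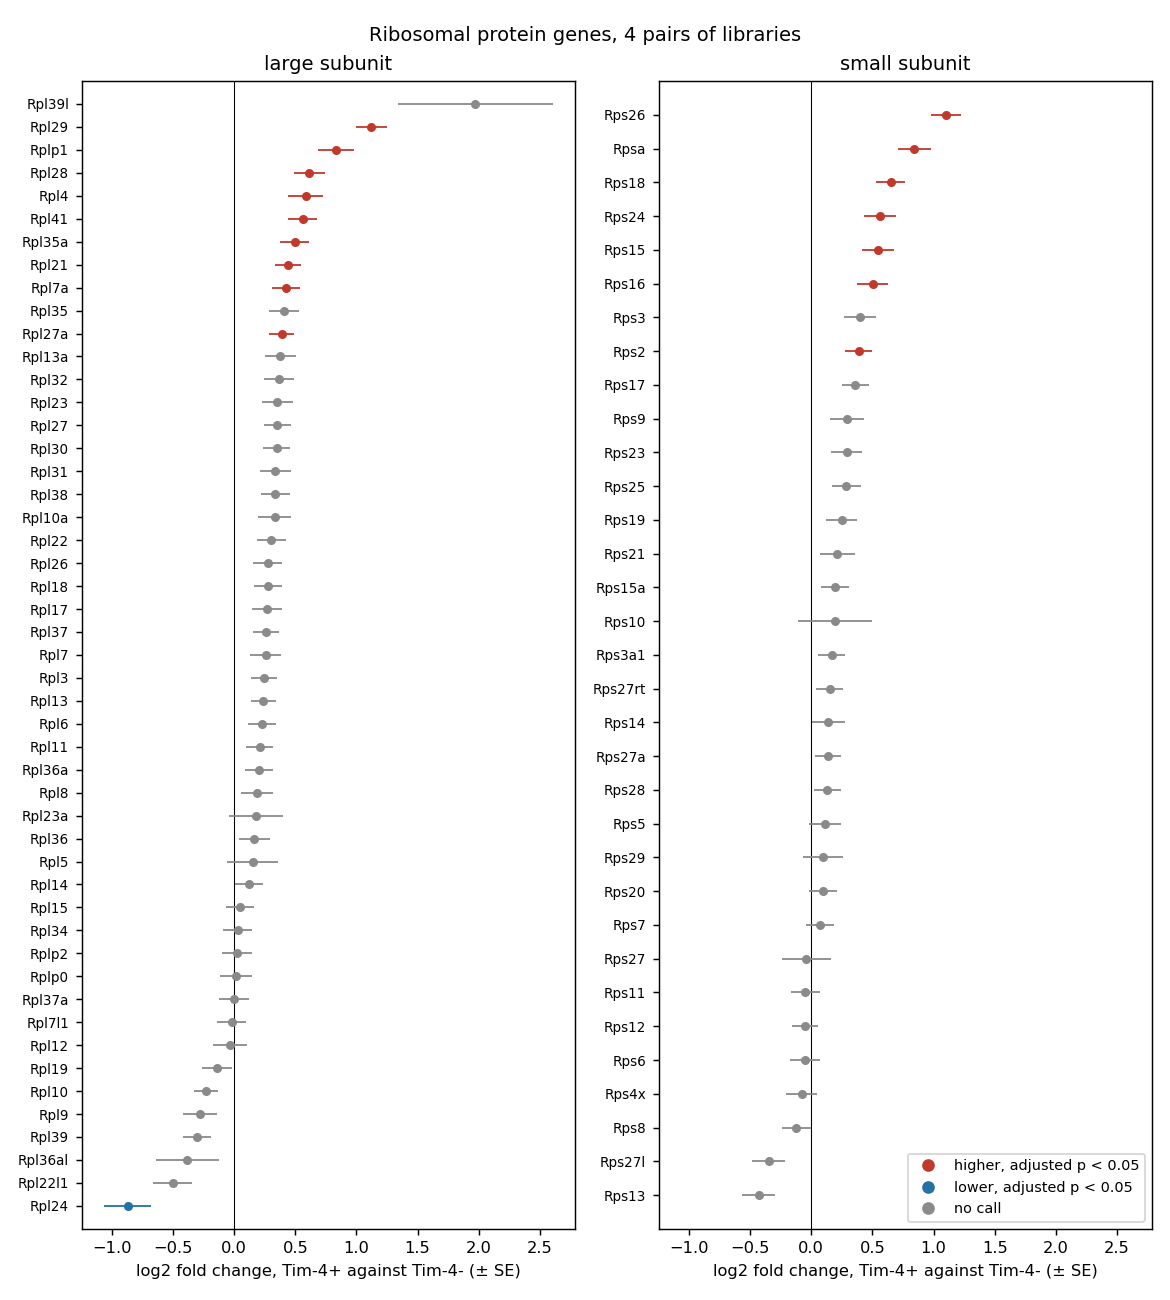
Log2 fold change, Tim-4+ against Tim-4- (horizontal axis, with SE), of tested large subunit genes (left, with 1 gene not shown) and the 33 small subunit genes (right), in order of size. Red marks genes higher and blue the 1 gene lower at a Benjamini-Hochberg adjusted p under 0.05, and grey the 65 without a call. Rpl39l has the highest value and by far the widest error.

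The large subunit had 10 members called higher and 1 called lower of 50 tested, with a median log2 fold change of 0.26. Rpl29, a protein on the surface of the large subunit that also binds heparin, led them (9:106429454-106431568). Rpl29 was at 506, 444, 379 and 558 CPM in Tim-4+ TAMs and at 247, 168, 196 and 262 CPM in Tim-4- TAMs. All 4 Tim-4+ libraries were above all 4 Tim-4- libraries, with a log2 fold change of 1.12 (SE 0.13, edgeR adjusted p = 0.00564) that was 0.76 on total counts.

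Rpl4, which lines the tunnel through which the new chain leaves, had the highest mean CPM of the family. It was at 1313, 1205, 993 and 1536 CPM in Tim-4+ TAMs and at 946, 719, 758 and 927 CPM in Tim-4- TAMs. The groups did not overlap (log2 fold change 0.58, SE 0.14, edgeR adjusted p = 0.0307, and 0.22 with adjusted p = 0.118 on total counts). Other large subunit genes called higher, besides Rplp1 of the stalk, included Rpl28 (0.61), Rpl41 (0.56), Rpl35a (0.49), Rpl21 (0.44), Rpl7a (0.42) and Rpl27a (0.39) on the log2 scale with TMM. On total counts these 6 had log2 fold changes of 0.25, 0.20, 0.13, 0.08, 0.06 and 0.03, and none passed.

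Rpl24, which forms a bridge to the small subunit, was the only member called lower (16:55966275-55971435). It was at 7.06, 5.25, 4.51 and 6.72 CPM in Tim-4+ TAMs and at 9.41, 8.98, 10.9 and 13.7 CPM in Tim-4- TAMs. The groups did not overlap (log2 fold change -0.87, SE 0.19, edgeR adjusted p = 0.0225), and the difference was -1.23 on total counts. Rpl24 was counted at a low level for its family, as 1 of 7 tested members with a mean under 10 CPM, and the call was lost without pair 784 or pair 779. The span of Rpl24 overlaps Gm28037, a processed transcript on the same strand, and what this did to its count was not tested.

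**Figure D4:**
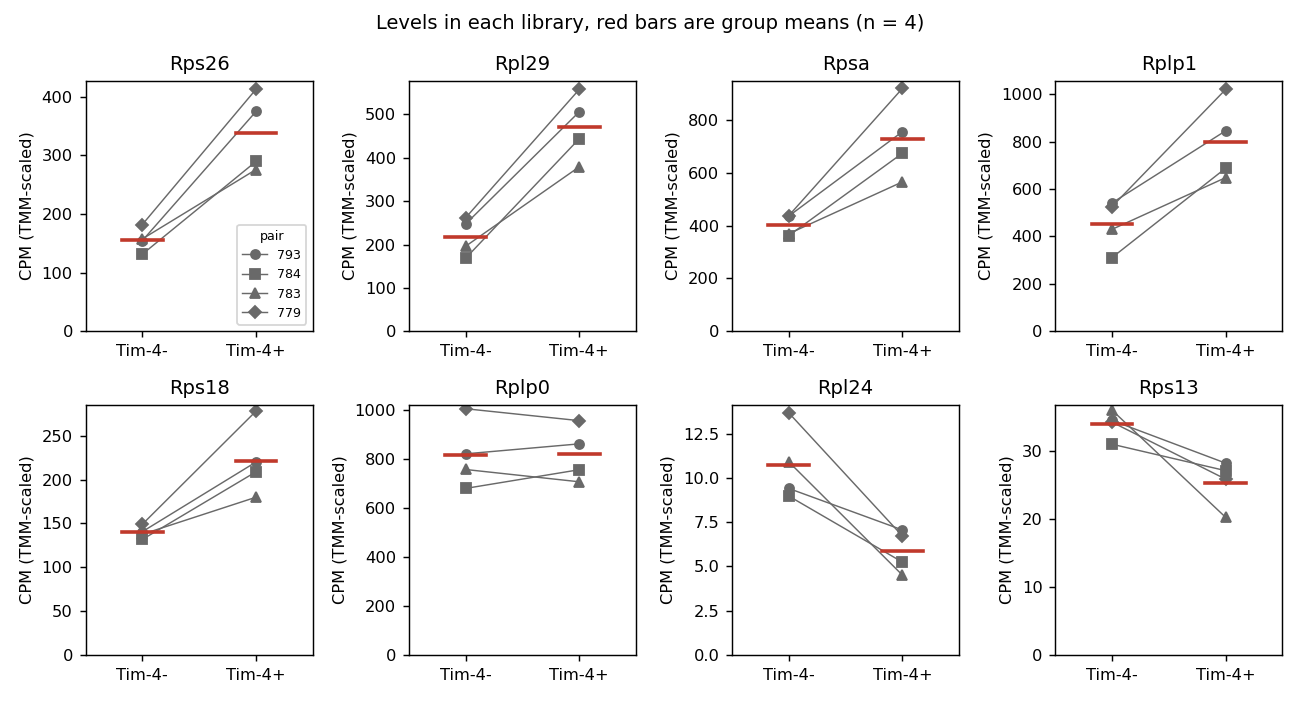
TMM-scaled CPM (vertical axes, from 0) in Tim-4- and Tim-4+ libraries, with a line for each of the 4 pairs and red bars for group means. Rps26, Rpl29, Rpsa, Rplp1 and Rps18 were higher in Tim-4+ TAMs with no overlap, Rplp0 crossed between pairs, and Rpl24 and Rps13 were lower in all 4 pairs.

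The stalk of the large subunit, built of Rplp0 and pairs of Rplp1 and Rplp2, recruits the translation factors that hydrolyse GTP. Its genes did not move alike. Rplp1 was at 846, 688, 649 and 1021 CPM in Tim-4+ TAMs and at 542, 311, 430.0 and 526 CPM in Tim-4- TAMs, without overlap (log2 fold change 0.835, SE 0.15, edgeR adjusted p = 0.0126). Rplp2, its partner, was at 151, 146, 137 and 153 CPM against 172, 112, 134 and 168 CPM, and higher in 2 of 4 pairs (0.02, SE 0.13). Rplp0, the base of the stalk and a common reference gene for qPCR, was at 863, 758, 708 and 958 CPM in Tim-4+ TAMs and at 823, 681, 759 and 1007 CPM in Tim-4- TAMs. With TMM it was at a log2 fold change of 0.01 (SE 0.13) and at -0.35 on total counts, where it passed as lower (edgeR adjusted p = 0.046). The difference between the stalk genes was not itself tested.

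Rpl5 and Rpl11, which carry 5S rRNA into the large subunit and can bind Mdm2, did not pass. Rpl5 was at 8.64, 8.63, 4.60 and 5.54 CPM in Tim-4+ TAMs and at 5.18, 8.14, 5.35 and 5.53 CPM in Tim-4- TAMs, and Rpl11 at 70.6, 59.5, 56.3 and 79.9 CPM against 56.7, 52.8, 58.5 and 60.8 CPM. The log2 fold changes of 0.15 (SE 0.21) and 0.21 (SE 0.11) turned to -0.21 and -0.15 on total counts. Rpl13a, known for release from the ribosome to silence inflammatory mRNAs in myeloid cells, was at 25.0, 17.7, 16.9 and 26.0 CPM against 16.8, 12.7, 14.2 and 22.6 CPM. It was higher in 4 of 4 pairs and did not pass (0.38, SE 0.12, edgeR adjusted p = 0.0738).

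Per kb of mRNA, the levels spread over a wide range. The 5 tested members with the highest CPM per kb, as a mean over the 8 libraries, were Rplp1 (1256), Rps29 (1159), Rplp0 (959.8), Rps15 (935.5) and Rpl8 (730.3). The 5 lowest were Rpl23a (5.71), Rpl36al (5.67), Rpl5 (4.48), Rps10 (3.42) and Rpl39l (0.567). Rps29 was at 505, 417, 365 and 567 CPM in Tim-4+ and at 529.5, 273, 443 and 515 CPM in Tim-4- TAMs, and Rpl8 at 753, 714, 574 and 873 CPM against 684, 556, 555 and 757 CPM, with overlap in both. Their log2 fold changes of 0.10 (SE 0.16) and 0.19 (SE 0.13) turned to -0.26 and -0.17 on total counts. At the low end Rpl23a, which sits at the exit of the tunnel, was at 3.45, 2.75, 3.25 and 4.15 CPM against 2.64, 2.66, 3.21 and 3.46 CPM, higher in 4 of 4 pairs by little (0.18, SE 0.22, and -0.18 on total counts). Reads that align to more than 1 place had been set aside before counting, so that the level of a gene with near-identical copies is uncertain. The span of 24 members, among them the called genes Rps18, Rpl28, Rps2 and Rpl35a, overlaps another gene on the opposite strand, and the use of strand in counting is not stated. Other overlaps are on the same strand, among them those of Rpl13, Rpl13a and Rpl36al with a protein-coding gene, and their effect on the counts was not tested. Across the 83 tested members the log2 fold change went with mean CPM at Pearson's r = 0.29 and Spearman's rho = 0.41, and with the number of named pseudogenes at -0.01 and 0.09. The points share libraries, and genes are not independent replicates.

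Members with a close paralogue were set side by side. Rpl39, in the wall of the exit tunnel, was at 122, 101, 101 and 146 CPM in Tim-4+ TAMs and at 136, 109, 148 and 189.7 CPM in Tim-4- TAMs, lower in 4 of 4 pairs without passing (log2 fold change -0.30, SE 0.11, edgeR adjusted p = 0.108, and 0.0111 on total counts). Rpl39l, its paralogue best known from male germ cells, was at 0.617, 0.628, 0.388 and 0.759 CPM against 0.0911, 0.0692, 0.335 and 0.186 CPM. It was higher in 4 of 4 pairs without overlap and did not pass at this low level (1.97, SE 0.64, edgeR adjusted p = 0.0691). Rpl22 and Rpl22l1 lay on different sides with TMM, and neither passed. Rpl22 was at 166, 143, 134 and 199 CPM against 138, 99.5, 132 and 151 CPM (0.30, SE 0.12, turning to -0.06 on total counts). Rpl22l1 was at 20.9, 18.1, 18.9 and 21.3 CPM against 23.7, 20.4, 30.7 and 41.1 CPM, lower in 4 of 4 pairs with overlap (-0.50, SE 0.16, edgeR adjusted p = 0.0667).

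Rps27 and Rps27l, a p53 target, were at 4.04, 6.28, 4.90 and 5.90 CPM against 4.81, 5.04, 4.71 and 7.17 CPM, and at 33.7, 38.7, 25.2 and 32.2 CPM against 35.8, 41.4, 37.0 and 50.7 CPM. Neither passed, with log2 fold changes of -0.04 (SE 0.20) and -0.35 (SE 0.13), though Rps27l was lower in 4 of 4 pairs. Rpl36a was at 65.6, 56.4, 51.3 and 72.6 CPM against 56.0, 40.0, 51.4 and 68.1 CPM (0.20, SE 0.11), and its intronless paralogue Rpl36al at 4.11, 3.73, 2.03 and 5.35 CPM against 4.69, 3.71, 4.66 and 6.09 CPM (-0.38, SE 0.26). Both overlapped between the groups and neither passed.

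Rpl7 was at 522, 437, 398 and 600.4 CPM in Tim-4+ TAMs and at 415, 359, 400.0 and 449 CPM in Tim-4- TAMs (0.26, SE 0.13). Rpl7l1, an assembly factor of the large subunit related to it, was at 64.2, 94.1, 45.5 and 62.7 CPM against 66.8, 79.4, 56.4 and 61.0 CPM (-0.02, SE 0.12). Both overlapped, and neither passed. Rpl3, a core protein near the peptidyl transferase center, was at 236, 216, 223 and 284 CPM against 212, 173, 195 and 230.1 CPM (0.24, SE 0.11). Rpl10, one of the last proteins to join the large subunit, was at 43.6, 40.0, 34.3 and 49.2 CPM against 48.2, 44.7, 44.1 and 58.3 CPM (-0.23, SE 0.10). Rps4x, on the X chromosome, was at 463, 378, 369 and 535 CPM against 495, 363, 464 and 514 CPM (-0.08, SE 0.13). Rpl3 was higher and Rpl10 lower in 4 of 4 pairs, while Rps4x was split 2 to 2, and none of the 3 passed. On total counts Rpl7, Rpl3 and Rpl36a turned to -0.10, -0.12 and -0.16, and Rpl10 (-0.59), Rps4x (-0.44) and Rpl7l1 (-0.38) passed as lower (edgeR adjusted p = 0.0125, 0.0181 and 0.0306). Rpl22l1 and Rps27l also passed as lower there (-0.86 and -0.71, edgeR adjusted p = 0.0164 and 0.0171). Rpl3l, the paralogue of striated muscle, had 12, 5, 2 and 6 counts in Tim-4+ and 1, 1, 1 and 4 counts in Tim-4- libraries and was not tested, nor was the germ-cell paralogue Rpl10l, with 0 counts in all 8 libraries.

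Reads were also counted on pseudogenes, gene copies in the genome, that carry the name of a member as their parent. They were found by symbol alone, and whether they are copies of spliced mRNA was not tested. Of 289 such pseudogenes joined across the lanes, 104 passed the count filter. In the same fit 33 were higher and none lower in Tim-4+ TAMs. At an unadjusted p under 0.05 in that fit 2 were lower, and DESeq2 called none lower. Of the 33, 20 were at least 2-fold higher, some of them at low levels. Rpl13a-ps1 was at a mean of 0.99 CPM in Tim-4+ against 0.38 CPM in Tim-4- TAMs, and Rps19-ps4 at 1.39 against 0.58 CPM. Of all genes 8.94% were higher, 8.46% were lower and 3.77% were 2-fold higher. The median log2 fold change of the 104 pseudogenes was 0.60. On total counts 24 were higher and 3 lower, with a median of 0.24, beside 4.67% and 29.4% of all genes and an all-gene median of -0.36. After length correction 25 were higher and none lower, with a median of 0.38 and an all-gene median of 0.013. That fit called 18.2% of all genes in either direction. Without the pair block 11 were higher, beside 0.854% of all genes. With pair 793, 784, 783 or 779 left out, 18, 8, 35 and 20 were higher. Those fits called 7.56, 0.888, 21.6 and 4.69% of all genes in either direction. They were examined after the members' values had been seen. Of the 104 pseudogenes tested, 37 overlap a protein-coding gene, and the part of that gene's reads in their counts was not tested.

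Together the named pseudogenes took 0.129, 0.0997, 0.104 and 0.132% of counts in the Tim-4+ subset against 0.0967, 0.0725, 0.0848 and 0.108% in the Tim-4- subset, a share that was higher in 4 of 4 pairs while that of the genes themselves was not. Rps10-ps2 was at 74.6, 54.6, 52.9 and 75.8 CPM against 30.0, 20.1, 22.6 and 34.6 CPM (log2 fold change 1.28, SE 0.10, edgeR adjusted p = 0.00289). Rps10 itself was at 3.43, 3.08, 1.55 and 2.02 CPM against 1.93, 2.12, 1.83 and 2.62 CPM, so that 95.7% of the counts under the 2 kinds of annotation lay on pseudogenes. The span of Rps10 overlaps the protein-coding gene RPS10-NUDT3 and the antisense gene Gm15420, and their part in its low count was not tested. Rps13-ps1 was at 77.2, 67.9, 62.2 and 78.1 CPM against 41.2, 29.2, 34.2 and 38.8 CPM (0.999, SE 0.11), the reverse of Rps13. Rps24-ps3 was at 49.9, 39.4, 34.0 and 52.2 CPM against 19.7, 12.5, 15.3 and 18.8 CPM (1.40, SE 0.12), and Rpl17-ps8, which lies within Heph, at 158, 133, 133 and 193 CPM against 97.2, 52.5, 67.6 and 83.7 CPM (1.06, SE 0.13). None of these 4 overlapped between the groups.

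Of the 60 tested members with a named pseudogene, 13 had over 20% of the summed counts on pseudogenes. Among them were Rpl17 (77.8%), Rps13 (63.4%), Rpl9 (58.1%), Rpl23a (55.7%) and Rpl10 (45.5%). Copies under other names were not counted, so these shares leave them out. A member without a named pseudogene may have such copies. Adding the pseudogene counts to the parent turned the sign of 4 members and took the number called higher to 23, with 1 lower. Rps10 became 0.96 (SE 0.10, edgeR adjusted p = 0.00475), and Rps13 went from -0.43 to 0.45 (SE 0.11, edgeR adjusted p = 0.0306). Rps6 went from -0.05 to 0.33 without passing. Which of these reads came from the parent's mRNA was not tested.

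**Figure D5:**
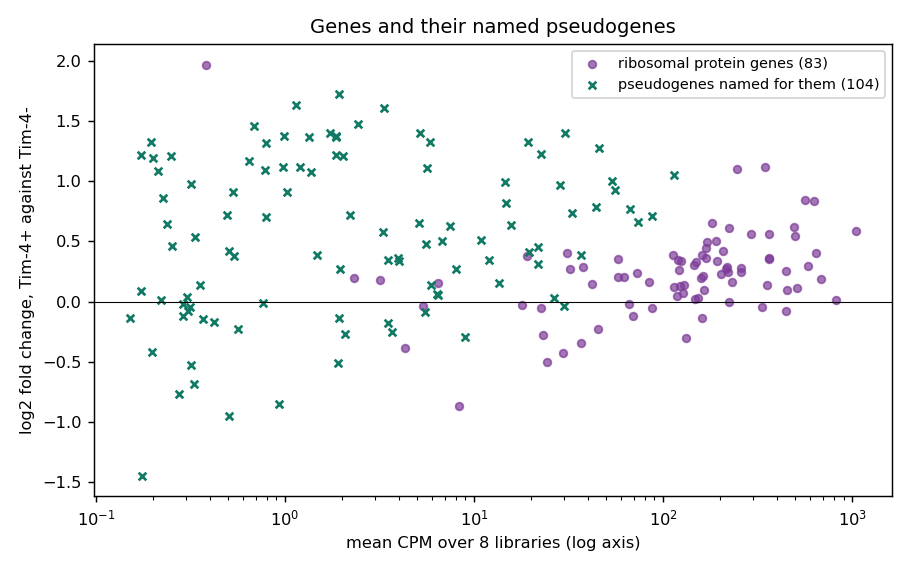
Log2 fold change, Tim-4+ against Tim-4- (vertical axis), against mean CPM over the 8 libraries (horizontal, log axis) of the 83 tested ribosomal protein genes (circles) and the 104 tested pseudogenes named for them (crosses). Above 10 CPM nearly all crosses lie above 0, and the median of all crosses is 0.60.

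The promoters of the family were looked at for what the genes share. RefSeq windows (GRCm38.p6, from 250 bases before to 50 bases after a start) were found for 65 of the 85 members, as 77 windows. The letters CGGAAG, the core that ETS-family factors bind, were present on either strand in 59.7% of these windows and in 16.9% of all 32851 windows. They stood in 62.5% of the windows of members called higher and in 59.0% of those of the other members. TATAAA was present on either strand in 9.09% of the members' windows and in 13.6% of all. CTCTTT, a run of pyrimidines, was present on either strand in 42.9% of the members' windows and in 23.0% of all. For members called higher it stood in 50.0% of windows and in 5 of 13 genes. For the other members it stood in 41.0% of windows and in 23 of 52 genes. A match is a description of the letters and not a bound site. The stretch from 100 bases before to 10 bases after the start is shown for the called genes Rpl4 and Rps15, which hold the motif there, and for Rpl24 and Rps13 from the lower end, which do not hold it in this stretch but have 1 match each elsewhere in the longer window, with CGGAAG or its reverse complement in capitals. These promoters were picked by hand and do not stand for the other members. They lie at chr9:64173287-64173396 (+), chr10:80292331-80292440 (+), chr16:55966175-55966284 (+) and chr7:116334181-116334290 (-).
Rpl4: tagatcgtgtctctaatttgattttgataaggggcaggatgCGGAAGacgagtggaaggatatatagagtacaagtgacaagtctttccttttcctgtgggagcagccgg
Rps15: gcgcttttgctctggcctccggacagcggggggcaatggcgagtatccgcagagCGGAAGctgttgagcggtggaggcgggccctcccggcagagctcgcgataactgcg
Rpl24: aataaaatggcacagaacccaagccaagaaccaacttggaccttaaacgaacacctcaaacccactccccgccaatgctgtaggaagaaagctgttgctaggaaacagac
Rps13: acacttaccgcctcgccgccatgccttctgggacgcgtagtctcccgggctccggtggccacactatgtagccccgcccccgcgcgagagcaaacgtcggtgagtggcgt

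Of 145 genes around the ribosome, in 5 lists, 14 were called higher, a share near the 8.94% of all genes. Of 39 initiation factors tested, 3 were higher and none lower with TMM (median log2 fold change 0.18). Denr, which helps ribosomes to re-initiate, was at 46.6, 82.8, 35.3 and 45.2 CPM against 31.6, 47.5, 29.0 and 34.7 CPM (0.51, SE 0.12, edgeR adjusted p = 0.0267), and Eif3k, a subunit of the initiation factor that binds the small subunit, stood at 0.41 (SE 0.12, edgeR adjusted p = 0.0478). Of 10 elongation and termination factors 1 was higher, Eef2k, the kinase that inhibits elongation (0.72, SE 0.17, edgeR adjusted p = 0.0294), with a list median of 0.25. Of 20 other genes with a TOP start 3 were higher, among them Pabpc1, which binds poly(A) tails (0.55, SE 0.13), and Tpt1, an abundant growth-related protein (0.54, SE 0.15), with a list median of 0.10. Tpt1 was at 1578, 1267, 1253 and 1903 CPM in Tim-4+ TAMs and at 1076, 827, 1040 and 1169 CPM in Tim-4- TAMs.

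Of 59 ribosome biogenesis genes 5 were higher, led by Utp14a (0.48, SE 0.11) and Noc2l (0.47, SE 0.13), and the list median was 0.08. Of 17 genes of mTORC1 and its TOP regulators 2 were higher, with a median of 0.12. These were Max, the partner of Myc (0.57, SE 0.13), and Eif4ebp1, the inhibitor of cap-dependent initiation that mTORC1 phosphorylates (0.42, SE 0.11). None of these 145 genes was lower with TMM (3 at an unadjusted p under 0.05), beside 8.46% of all genes. On total counts none was higher (1 at an unadjusted p under 0.05) and 31 were lower, beside 4.67% and 29.4% of all genes, so that the lists moved with the scaling as genes in general did. DESeq2 with the block called 23 higher and 2 lower, in the fit that called 27.0% of all genes. The edgeR calls were all lost when pair 793, 784 or 779 was left out.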

How the data were processed

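Tim-4+ and Tim-4- TAMs were profiled by RNA-seq in 4 numbered pairs (8 libraries, 2 lanes each). The authors deposited raw counts of reads per gene for each lane, without normalization. Methods: rRNA removal and stranded, paired-end libraries. The processing notes name FastQC 0.11.3, TopHat2 2.0.13, Cufflinks and Cuffdiff 2.2.1 with GRCm38 (mm10), whereas the paper's methods name hg19. The tool that made the deposited counts is not given in the sources used here. Rows that name no gene (no feature, ambiguous, not unique) held 18.9 to 32.9% of a lane's reads in the 15 lanes that list them and were left out. Not unique reads numbered 10020232 and 3153643 in the lanes of 779 Tim-4-.

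Lanes were summed. Lane 1 of the Tim-4- library of pair 793 is listed by gene symbol. It was joined through symbols that name 1 gene on each side (51766 genes, 98.9% of its counts), after 4 genes were left out whose lanes differed over 2-fold at 200 or more counts. Symbols and coordinates are those of GENCODE M21 (GRCm38), which holds 98.4% of the listed identifiers.

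Genes reaching 10 counts in 4 or more libraries were tested with edgeR 4.0.16 in R 4.3.3 (quasi-likelihood, TMM, robust, the pair as a block), and p-values of the 16394 genes were adjusted by Benjamini-Hochberg. The SE is the log2 fold change divided by the square root of F. The pair numbers come from the labels. The deviations of same-numbered libraries from their group means correlated at 0.476, 0.503, 0.412 and 0.280, so the block was kept. The p-values measure the spread between these pairs, which the labels do not tie to separate animals. Pair log2 ratios used a prior count of 2. The fit was also run on simulated counts, which held no differences between pairs and larger changes than most members showed. That run therefore does not test the block or small differences.

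The members and lists were chosen with earlier results of these data known. Values in each library are given for the 5 members with the highest and the 5 with the lowest CPM per kb, the 5 with the smallest p in each direction, paralogue pairs, the stalk genes, Rpsa, Rps6, Rps27a, Rpl5, Rpl11, Rpl13a and Rps3, and the named pathway genes are the 2 called with the largest change per list and direction. Rpl4, Rps15 and the pseudogenes were added after their values were seen. Alternatives were other scalings, count filters, lane joins, DESeq2 1.42.0, no block, GC and length corrections (loess span 0.5), pseudogenes added to their parents, and each pair left out. Of the lists of other cells, 1 of 5 lymphocyte markers tested, 1 of 7 dendritic and 1 of 4 granulocyte markers were lower in Tim-4+ TAMs, and 1 dendritic marker was higher. 1 member is counted in the totals and not reported here by name.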

Additional observations from a re-analysis of the deposited data

Results flagged for a closer look

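In 76 groups of 4 libraries, 1 library stood apart from the other 3 by Dixon's test in 3 cases, where chance flags about 1 in 20 groups. Rpl5 was at 8.14 CPM in the Tim-4- library of pair 784, with the others at 5.18 to 5.53 CPM. Rps27 was at 7.17 CPM in the Tim-4- library of pair 779, with the others at 4.71 to 5.04 CPM. Rpl3l, which rests on 1 to 4 counts in Tim-4- libraries, was at 0.0620 CPM in that of pair 779 and at 0.0129 to 0.0152 CPM in the others.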

How the results depend on the processing

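The counts of 17 members higher and 1 lower held with DESeq2 size factors, TMM without ribosomal protein genes, a stricter filter, and the symbol-listed lane left out or joined by row order, with the same genes each time. On total counts the numbers were 4 and 19, the member median -0.13 and the median pair ratio -0.14, with 0 pathway genes higher and 31 lower. Scaled to ribosomal protein counts (added after the data were seen) they were 4 and 14, median -0.10, with 0 and 27 pathway genes. The fit without the replicate block gave 2 and 0 members and 0 pathway genes higher, and DESeq2 with the replicate block 26 and 3 members and 23 and 2 pathway genes. Leaving out a pair gave 2 to 16 members higher (4 without 793, 2 without 784, 3 without 779), 0 to 1 lower and 0 to 12 pathway genes higher. Members lower numbered 3, and pathway genes lower 1, without a count filter, and members lower 2 after GC or length correction. The cause was not tested.

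Signs turned on total counts and on ribosomal protein counts for Rps10 (-0.17, -0.14), Rpl5 (-0.21, -0.18), Rpl23a (-0.18, -0.15), Rpl8 (-0.17, -0.14), Rplp0 (-0.35, -0.32), Rps29 (-0.26, -0.23), Rpl3 (-0.12, -0.088), Rpl7 (-0.10, -0.073), Rpl22 (-0.056, -0.026), Rpl36a (-0.16, -0.13), Rplp2 (-0.34, -0.31), Rps27a (-0.22, -0.19) and Rpl11 (-0.15, -0.12). With pseudogenes added they turned, among the members with values in each library, for Rps13 (0.45), Rpl10 (0.069) and Rps6 (0.33), and also for Rps12 (0.31), after GC correction for Rps27 (0.039) and Rps6 (0.093), and after length correction for Rplp0 (-0.025), Rps29 (-0.089) and Rpl7l1 (0.0285). Rplp0 was at -0.0025 without a filter and Rpl7l1 at 0.015 without the replicate block. With 1 pair left out, values ranged from -0.0155 to 0.38 for Rps10, -0.036 to 0.27 for Rpl5, -0.035 to 0.048 for Rplp0, -0.0715 to 0.22 for Rps29, -0.11 to 0.073 for Rpl7l1, -0.12 to 0.0031 for Rps4x, -0.16 to 0.043 for Rps27, -0.097 to 0.10 for Rplp2 and -0.13 to 0.064 for Rps6. None of these was called in the edgeR fit with TMM and the block on the counts and filter of the report, without GC or length correction. Rps13 was called lower without a count filter, after GC correction and by DESeq2 with the block. It was also called lower on total counts and on ribosomal protein counts. Rps13 and Rps10 were called higher with pseudogenes added. Members under 10 CPM had the widest errors.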
